A study of Homo sapiens with 6 samples.

Results

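Gene expression after 24 h of 100 nM PCI-24781 was compared with gene expression after 24 h of the solvent DMSO in MDA-MB-231 cells, an established human triple-negative breast cancer cell line. The comparison used 2 of the 6 RNA-seq libraries of the study, DMSO 24 h and 100 nM 24 h. The other libraries were 200 nM PCI-24781 for 24 h and DMSO, 100 nM and 200 nM for 48 h, all from adherent MDA-MB-231 cells, with 1 library per condition. All treated and control libraries came from the same line, and no genetic change was made in any of them. Levels were FPKM, fragments scaled by the length of the transcript and by the sequencing depth of the library. Genes entered the comparison when their FPKM was at least 1 in either library, which kept 11475 of the 16623 genes listed. The change was the difference in log2(FPKM + 1), 100 nM 24 h minus DMSO 24 h, and differences of at least 2-fold on that scale were called higher or lower. The added 1 makes the change of a weakly expressed gene look smaller than its ratio of FPKM. With 1 library per side the differences have no replicate check, and no p-value was computed.

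PCI-24781 is a hydroxamic acid that inhibits zinc-dependent histone deacetylases (HDACs). These enzymes remove acetyl groups from lysines of histones and of other proteins, and deacetylated chromatin is in general less accessible to transcription. HDAC inhibitors are known to raise histone acetylation, to change the transcription of many genes in both directions, and often to raise CDKN1A (p21), an inhibitor of cyclin-dependent kinases. The study asked how PCI-24781 acts on breast cancer cells and turned to calcium signalling through the G protein subunit Gαq, phospholipase C and the regulator RGS2.

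The libraries carried the markers of the line. VIM, the mesenchymal intermediate filament, was at FPKM 1920 with DMSO and 1677 with 100 nM for 24 h, and the receptor kinase AXL was at 475 and 486. The estrogen receptor gene ESR1 was at 0.02 and 0 and the progesterone receptor gene PGR at 0.02 and 0.03. Other luminal genes were present at low level, ERBB3 at 3.54 and 3.86, FOXA1 at 1.71 and 1.75 and GATA3 at 0.84 and 1.03. Of the leukocyte genes LYZ was at 2.37 and 4.54, PTPRC at 0.81 and 0.79, CD14 at 0.28 and 0.62 and CD3E at 0 and 0.04. Of the endothelial genes PECAM1 was at 0.38 and 0.64, CDH5 at 0.01 and 0.03 and VWF at 0 and 0.01, and the hemoglobins HBB and HBA1 were listed at 0 in both. As in any bulk library, fewer cells of a kind and less RNA per cell cannot be told apart. Steps of the lowest FPKM values put the depth at about 18100000 fragments for DMSO 24 h and 17400000 for 100 nM 24 h, and between 15700000 and 18000000 in the other 4 libraries. A transcript of 2000 bases with 3 fragments would then have an FPKM of 0.083 to 0.086.

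The libraries labelled DMSO differed from each other, and this bears on every value that follows. By the same rule, the library labelled DMSO 48 h exceeded DMSO 24 h for 286 of 11490 genes (2.49%) and lay below it for 15 (0.131%), more than the number called between 100 nM and DMSO at 24 h. The 155 genes called higher at 100 nM 24 h had median levels of 1.63 (DMSO), 5.57 (100 nM) and 8.29 (200 nM) among the 24 h libraries. In the 48 h libraries their median was 5.68 in the library labelled DMSO 48 h, 3.25 in the one labelled 100 nM 48 h and 8.71 in the one labelled 200 nM 48 h. At 48 h the library labelled 100 nM was therefore below the one labelled DMSO. The opposite order of DMSO and 100 nM at 24 h follows from the choice of these genes. What sets these libraries apart was not tested, and the 48 h libraries are named below by their labels.

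**Figure D1:**
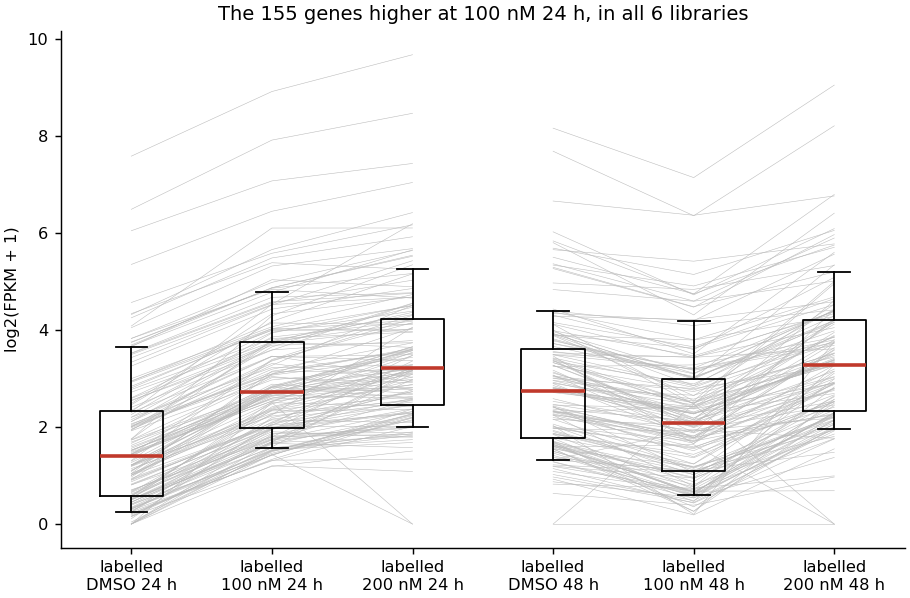
Levels of the 155 genes called higher at 100 nM 24 h, as log2(FPKM + 1), in the 6 libraries by label. Boxes span the quartiles, red bars mark medians, whiskers reach the 10th and 90th percentiles and each gray line is 1 gene; the genes were chosen by the first 2 libraries. The median goes up from DMSO to 100 nM and 200 nM among the 24 h libraries, and among the 48 h libraries it is lowest in the one labelled 100 nM.

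PCI-24781 at 100 nM for 24 h was accompanied by more increases than decreases. Of the 11475 genes, 155 (1.35%) were at least 2-fold higher and 15 (0.131%) were at least 2-fold lower. Most of the transcriptome lay close to equality: 67.4% of genes were within 0.25 of 0 on the log2 scale and 90.3% within 0.5, with a median change of 0.01. Of the higher genes, 126 lay between 2-fold and 3-fold and 9 reached 4-fold. Nearest the threshold, EDNRB (FPKM 1.21 and 3.43) and CYP2J2 (0.75 and 2.51) were just inside it, while CTIF (6.96 and 14.89) and HAPLN3 (1.23 and 3.45) were just outside. On the other side FBXW4 (7.82 and 3.36) was inside and NUPR1 (2.14 and 0.59) and HMGN2 (249.73 and 126.64) were outside.

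**Figure D2:**
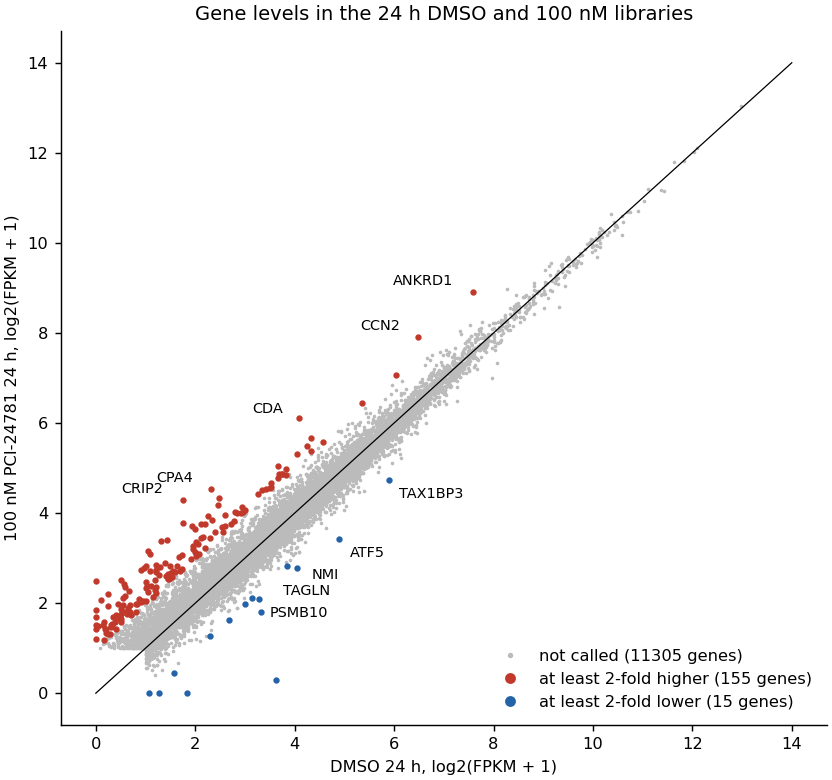
Each point is 1 of 11475 genes, with log2(FPKM + 1) in DMSO 24 h on the horizontal axis and at 100 nM 24 h on the vertical axis; the line marks equality. The 155 higher genes (red) lie mostly at the low end of the DMSO axis, and the 15 lower genes (blue) include ATF5, NMI, PSMB10 and TAX1BP3.

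The called genes are described by known role, a grouping made after their values were seen and not tested. The largest increase belonged to CRIP2 (hg19, chr14:105939275-105946507), a LIM domain protein. At 24 h CRIP2 was at FPKM 2.37 with DMSO, 18.61 with 100 nM and 39.63 with 200 nM, a log2 change of 2.54 at 100 nM. In the 48 h libraries it was at 15.02 (DMSO), 4.55 (100 nM) and 30.07 (200 nM). Its levels in DMSO 24 h and in the library labelled 100 nM 48 h were thus the lowest of the 6. LMCD1, another LIM domain protein, went from 1.48 to 9.38, and AFAP1L2, an actin-associated adaptor, from 0.49 to 4.34.

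Some of the called genes encode proteases or a receptor that proteases cleave. CPA4 (hg19, chr7:129932974-129964020), a secreted carboxypeptidase first described as induced by histone deacetylase inhibitors, was at 3.96 in DMSO 24 h and 22.12 at 100 nM 24 h, about 198 and 1065 fragments, a log2 change of 2.22. CPA4 reached 72.02 at 200 nM 24 h and was at 14.22, 7.0 and 39.6 in the 48 h libraries labelled DMSO, 100 nM and 200 nM. PRSS3, a trypsinogen, went from 1.06 to 7.88 (2.11), and F2RL2, the protease-activated receptor PAR3, from 2.37 to 12.78 (2.03). PRSS3 belongs to a family of similar trypsinogen genes, so its reads may be shared with copies. MMP15, a membrane-anchored matrix metalloproteinase, went from 0.5 to 2.48 (1.21) and was at 7.52 at 200 nM 24 h.

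Other called genes act at the cell surface or at junctions. PCDH1 (hg19, chr5:141232676-141257975), a protocadherin of epithelial cells, was at 0.08 in DMSO 24 h and 3.21 at 100 nM 24 h, about 6 and 241 fragments. Its level was 10.16 at 200 nM 24 h and 3.08, 0.15 and 12.53 in the 48 h libraries labelled DMSO, 100 nM and 200 nM. PCDH1 was therefore near absence in DMSO 24 h and in the library labelled 100 nM 48 h, and clearly present in the other 4. CLDN1, a tight junction claudin, went from 4.6 to 19.16 (log2 change 1.85), about 290 and 1161 fragments. JUP, the junction protein γ-catenin, was at 3.02 and 9.27 (1.35), and the basal keratin KRT15 at 0.36 and 2.94 (1.53). FXYD1, a small regulator of the sodium pump, was listed at 0 in DMSO 24 h and was at 2.6 at 100 nM 24 h, about 27 fragments.

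Several higher genes are best known from neurons and endocrine cells. CALB2 (calretinin), an EF-hand calcium buffer, was at 1.12 in DMSO 24 h and 7.52 at 100 nM 24 h, a log2 change of 2.01. SCG2 (secretogranin II), a protein of secretory granules, was at 0.19 and 2.85 (1.69), and PCSK1N, an inhibitor of a prohormone convertase, at 0.89 and 5.68 (1.82). APLP1, a relative of the amyloid precursor protein, was at 2.81 and 12.16 (1.79), the adhesion G protein-coupled receptor ADGRB2 at 0.19 and 3.58 (1.94), and the microtubule protein MAPT (tau) at 1.01 and 4.56 (1.47). RGS9, a GTPase-activating protein of the retina and striatum, was at 1.01 and 6.08 (1.82). NRGN (neurogranin), a calmodulin-binding protein, was already abundant at 65.08 and was at 133.66 at 100 nM (1.03). MAPT, SCG2 and PCSK1N had still higher levels at 200 nM 24 h, 8.71, 9.28 and 11.22.

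Secreted ligands and matrix proteins included several of the most abundant called genes. CCN2 (connective tissue growth factor; hg19, chr6:132269316-132272518) was at 88.75 in DMSO 24 h and 240.28 at 100 nM 24 h, about 3757 and 9779 fragments, a log2 change of 1.43. ANKRD1, a nuclear ankyrin repeat protein and, like CCN2, a known target of the YAP/TAZ-TEAD transcription factors (hg19, chr10:92671857-92681032), was at 190.83 and 481.91 (1.33). At 200 nM 24 h CCN2 was at 352.8 and ANKRD1 at 816.02, and in the library labelled 100 nM 48 h they were at 80.86 and 140.2, below DMSO 24 h. IGFBP3, which binds insulin-like growth factors, was at 39.83 and 86.26 (1.10), and the matricellular protein THBS1 at 12.4 and 28.24 (1.13). TNC (tenascin C) was at 0.51 and 4.1 (1.76), TINAGL1 at 18.96 and 49.49 (1.34), TGFBI at 1.14 and 5.57 (1.62) and LTBP1, which holds latent TGF-beta, at 3.03 and 7.23 (1.03). AREG (amphiregulin), a ligand of the EGF receptor, was at 1.69 and 9.5, a log2 change of 1.96. Among cytokines, IL24 was at 0.43 and 4.74 (2.005), CXCL8 (interleukin 8) at 11.6 and 31.83 (1.38) and IL1B at 3.45 and 10.02 (1.31). The 3 cytokine genes were higher still in the library labelled DMSO 48 h, at 10.05, 64.05 and 38.17.

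CDA (cytidine deaminase), which inactivates nucleoside drugs such as gemcitabine and cytarabine, was the most abundant gene among the 10 largest increases. Its level was 15.94 in DMSO 24 h and 67.68 at 100 nM 24 h, a log2 change of 2.02, and at 200 nM 24 h it was nearly the same as at 100 nM, 67.73. GPX3, a secreted glutathione peroxidase, was at 22.7 and 46.89 (1.01), and GMPR, which converts GMP to IMP, at 10.45 and 22.96 (1.07). The chaperone CLU (clusterin) was at 18.05 and 43.8 (1.23), GSN (gelsolin), a calcium-dependent actin-severing protein, at 11.92 and 28.29 (1.18), and GABARAPL1, an autophagosome protein, at 8.56 and 20.57 (1.17). CYSTM1, EEF1A2, MARCHF4, KRTAP2-3, CCDC88A, SGO2 and the divergent transcript ANKRD13C-DT were also among the 24 higher genes that reached FPKM 20, with log2 changes between 1.01 and 1.27. DNAAF3, a factor for assembling ciliary dynein arms, was at 0.96 and 5.87 (1.81).

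**Figure D3:**
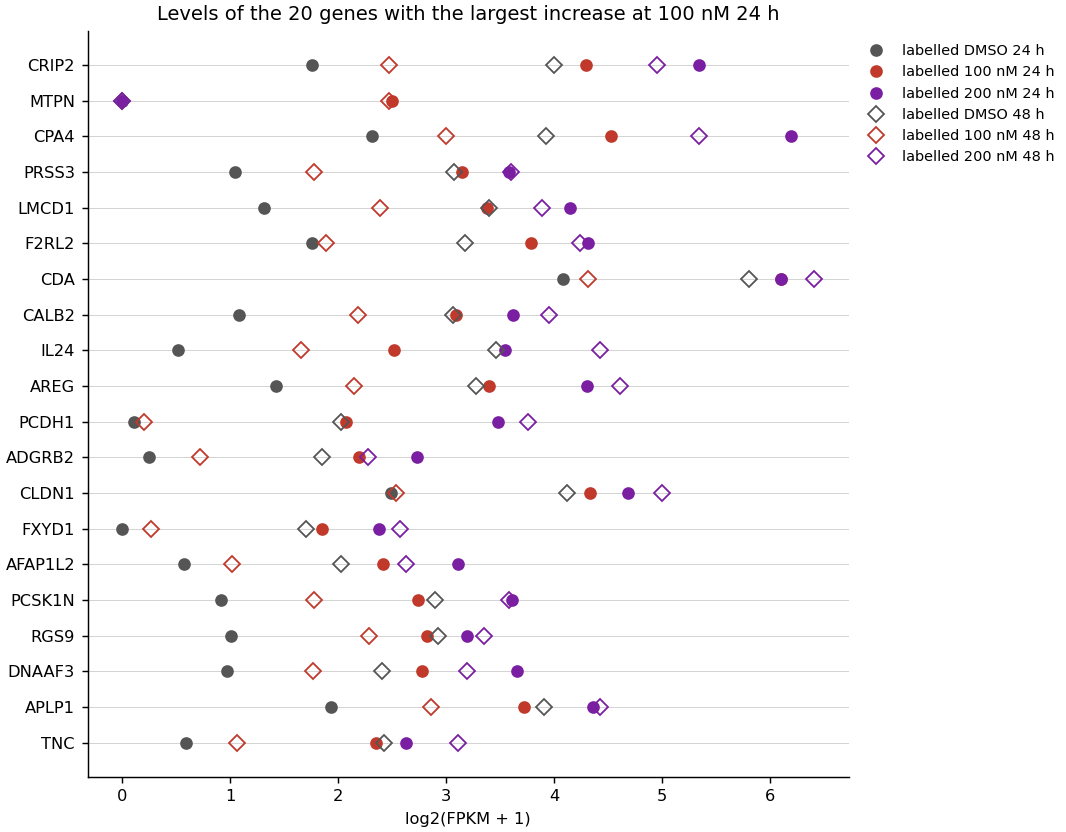
Levels of the 20 genes with the largest increase, as log2(FPKM + 1); filled circles are 24 h libraries and open diamonds 48 h libraries, in gray for DMSO, red for 100 nM and purple for 200 nM, by label. For 19 of the 20 genes the library labelled 100 nM 48 h lies between DMSO 24 h and the library labelled DMSO 48 h, and the exception is MTPN. The genes were chosen by DMSO 24 h and 100 nM 24 h, and the share among all measured genes was not computed, so this count is description only.

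Not all large values can be read as a change of a gene. MTPN, the second largest increase, was listed at 0 in DMSO 24 h and at 4.66 at 100 nM 24 h, but also at 0 at 200 nM 24 h and in the libraries labelled DMSO 48 h and 200 nM 48 h, and at 4.53 in the one labelled 100 nM 48 h. Another gene covers it on the same strand, so the split of reads between them is uncertain. The same holds among the lower genes for LOC102724594 (11.25 and 0.23), which overlaps U2AF1, for SERF1A (9.03 and 2.49), which overlaps the near-identical SERF1B, for MTHFS (1.98 and 0.36), which overlaps ST20-MTHFS, and for the read-through genes FMC1-LUC7L2 (2.59, then listed at 0) and ATP5MF-PTCD1 (1.42, then listed at 0). In all, 8 of the 155 higher and 5 of the 15 lower genes had such a same-strand partner covering at least 50% of the shorter gene, MAPT and GABARAPL1 among them.

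Among the lower genes without a same-strand partner, ATF5 had the largest change. ATF5 (hg19, chr19:50431959-50437515), a stress-responsive bZIP transcription factor, was at 28.78 in DMSO 24 h and 9.78 at 100 nM 24 h, about 1078 and 352 fragments, a log2 change of -1.47. It was at 4.01 at 200 nM 24 h and at 11, 15.38 and 4.87 in the 48 h libraries labelled DMSO, 100 nM and 200 nM. NMI, an interferon-inducible partner of MYC and STAT proteins, was at 15.62 and 5.84 (-1.28), and PSMB10, an inducible subunit of the immunoproteasome, at 8.72 and 3.24 (-1.20). TAX1BP3, a small PDZ domain protein, was the most abundant gene called lower, at 58.22 and 25.68 (-1.15). Levels at 200 nM 24 h were lower again for NMI (1.73), PSMB10 (0.98) and TAX1BP3 (21.66). TAGLN, an actin-binding protein of smooth muscle, was at 13.33 and 6.05 (-1.02) but at 7.22 at 200 nM 24 h, and it was lower in all 3 libraries labelled 48 h (2.66, 5.47 and 2.36).

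Gene lists chosen for the cell line, for HDAC inhibition and for the study are given by counts and medians, to be read beside the 1.35% called higher, the 0.131% called lower and the median of 0.01 over all genes. Apart from the genes the study discusses, the lists with the highest medians among those with at least 10 genes measured at FPKM 1 were matrix metalloproteinases and their inhibitors (0.47 over 10 genes), synaptotagmins and related proteins (0.39 over 10), neuronal and neuroendocrine genes (0.38 over 13) and integrins (0.35 over 13). Of the 10 metalloproteinase genes, 8 were above 0 and 1, MMP15, was called, while TIMP4 went from 0.43 to 1.61 (0.87) and MMP14, the main membrane-type collagenase, had a change of -0.42. None of the 10 synaptotagmin genes was called: SYTL2 was at 2.06 and 5.07 (0.99) and ESYT1, a tether between membranes, at 56.59 and 38.02 (-0.56). Of 36 neuronal genes in the files 13 were measured at FPKM 1, and 12 of these were above 0. SCG2, MAPT and GABARAPL1 were called, of which GABARAPL1 is known above all from autophagy, and it and MAPT have same-strand partners. No integrin was called, and the largest change was that of the β3 subunit ITGB3 (0.98 and 2.86, 0.96). Members under FPKM 1 in both libraries were left out, and they numbered 10, 16, 23 and 12 in the order of these 4 lists. With the library labelled DMSO 48 h as the reference, the medians of these 4 lists were -0.15, -0.01, -0.29 and -0.28. In every list, a gene under FPKM 1 with DMSO entered only when 100 nM reached 1, so its change is above 0 by the filter. List medians and counts above 0 are thus not independent of the filter. With no filter on low values 11 of the 35 list medians moved by at least 0.1, and with FPKM of at least 1 in both libraries 2 did.

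Proliferation genes showed small shifts. Of 36 DNA replication genes, 33 were below 0 and 3 above, none was called, and the median was -0.19. TYMS (thymidylate synthase) had the largest change, from 152.8 to 88.21 (-0.79), with 38.36 at 200 nM 24 h, and LIG1 and MCM4 followed at -0.43 and -0.41. The median of this list was -0.24 after rescaling by median ratios and 0.15 with the library labelled DMSO 48 h as the reference. Its direction thus depends on the reference library. Of 30 mitotic genes none was called and 22 were below 0 (median -0.07), with CENPF (21.0 and 42.55, 0.99) and CENPE (0.71), 2 large kinetochore proteins, on the other side and the kinesin KIF20A at -0.45. CDKN1A was the 1 called gene among 5 CDK inhibitors, at 13.18 (DMSO), 30.61 (100 nM) and 48.84 (200 nM) after 24 h, a log2 change of 1.16. In the 48 h libraries labelled DMSO, 100 nM and 200 nM CDKN1A was at 44.25, 25.81 and 52.88. The 11 zinc-dependent HDAC genes themselves lay between -0.20 (HDAC4) and 0.43 (HDAC5), with none called, and 10 linker and variant histone genes had a median of -0.05.

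Epithelial and mesenchymal genes were measured as separate lists. Of 22 epithelial genes, 16 were above 0 and 3 were called higher (CLDN1, KRT15 and JUP), with a median of 0.22. The other 6 were below 0, the lowest at -0.58. KRT80 was at 24.7 and 41.86 (0.74) and KRT19 at 20.62 and 31.55 (0.59). The more abundant keratins KRT8 (86.51 and 64.26, -0.42) and KRT18 (98.8 and 89.03, -0.15), counted in the luminal list, went the other way. CDH1 (E-cadherin) stayed below FPKM 1 in both libraries, at 0.25 and 0.39. Of 19 mesenchymal genes none was called higher and TAGLN was called lower, with a median of 0.17. The collagen COL5A1 was at 5.63 and 10.6 (0.81), FN1 (fibronectin) at 39.73 and 52.94 (0.41), ZEB1 at 54.39 and 61.73 (0.18) and VIM had a change of -0.20. For both lists the medians against the library labelled DMSO 48 h were near 0, -0.09 and 0.09.

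**Figure D4:**
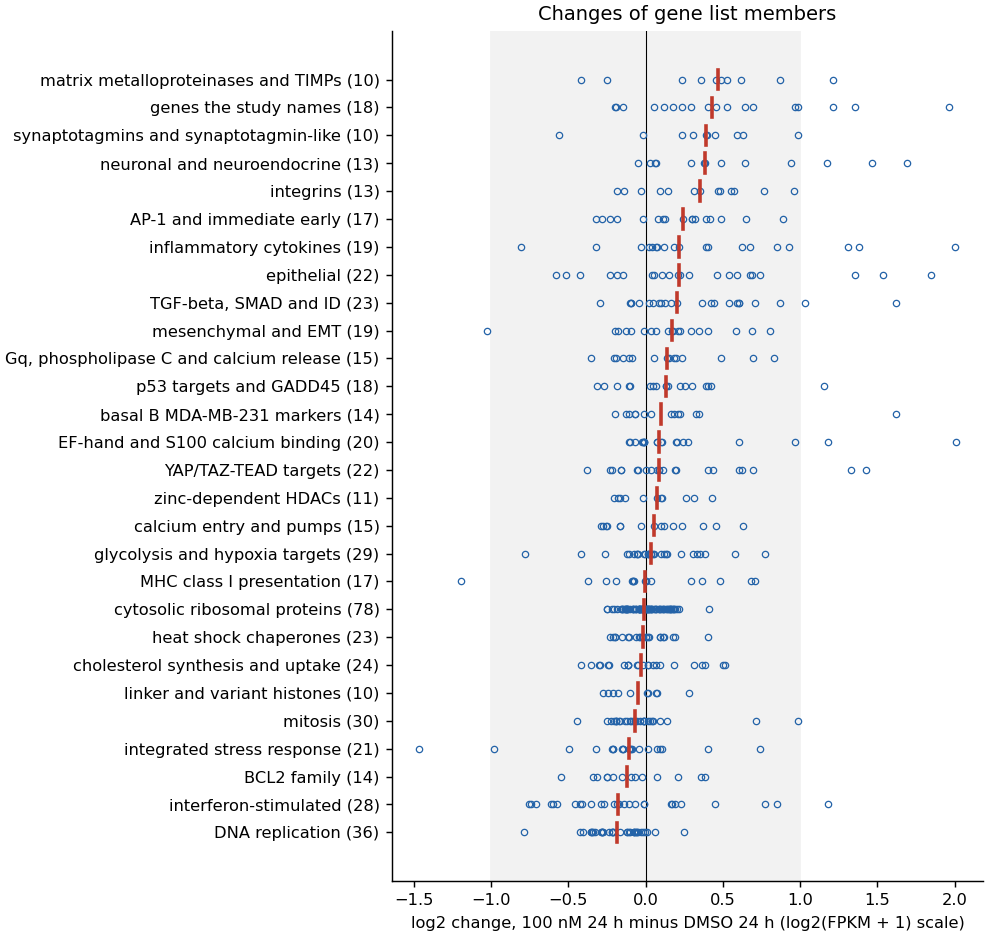
Log2 change at 100 nM 24 h (log2(FPKM + 1) scale) of the members of each list with at least 10 measured genes; 1 circle per gene, red bars at the medians, the number of genes in brackets, and the gray band marking less than 2-fold. Medians run from -0.19 for DNA replication to 0.47 for matrix metalloproteinases and TIMPs, and most circles lie inside the band.

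Immune and stress lists had called genes on both sides. Of 28 interferon-stimulated genes, 20 were below 0 and the median was -0.18, with IFIT2 at 25.66 and 14.83 (-0.75), while IFI6 was called higher at 4.3 and 11 (1.18). In MHC class I presentation PSMB10 was called lower and HLA-B was at 55.37 and 91.27 (0.71), with a median of -0.01 over 17 genes. Among 19 inflammatory cytokines, 16 were above 0 and IL24, CXCL8 and IL1B were called (median 0.22), and against the library labelled DMSO 48 h the median was -0.78. Of 21 genes of the integrated stress response 15 were below 0 (median -0.11), with ATF5 called and NUPR1 at -0.98, but ATF3 was at 1.43 and 3.06 (0.74). In the TGF-beta list TGFBI and LTBP1 were called among 23 genes (median 0.20). In the YAP/TAZ-TEAD list CCN2 and ANKRD1 were called among 22, with CCN1 at 309.87 and 502.61 (0.70), F3 (tissue factor) at 0.62 and a median of 0.09.

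The remaining lists held few or no called genes. Heat shock chaperones (-0.02 over 23 genes), cytosolic ribosomal proteins (-0.01 over 78), cholesterol synthesis and uptake (-0.03 over 24), glycolysis and hypoxia targets (0.03 over 29), BCL2 family (-0.12 over 14), AP-1 and immediate early genes (0.24 over 17), metallothioneins (-0.05 over 4) and PCDHB protocadherins (0.11 over 4) had none. Of 18 p53 targets CDKN1A was called (0.13). In the AP-1 list the immediate early gene EGR1 was at 0.66 and 2.07 (0.89). NDRG1, a hypoxia and differentiation gene, was at 100.63 and 172.34 (0.77), and the BH3-only gene BBC3 (PUMA) at 3.04 and 1.76 (-0.55). Of the 17 listed cancer-testis genes that the files hold, only XAGE1B reached FPKM 1, at 186.27 and 243.12 (0.38). XAGE1B has near-identical copies that may share its reads. The list is not complete, and SPANXA1, a cancer-testis gene outside it, was at 0.4 and 1.59 (0.89). Of 14 leukocyte markers in the files 2 were measured, LYZ (2.37 and 4.54, 0.72) and CD68 (-0.48), of 10 endothelial markers 3 (median 0.02), of 12 luminal markers 7 (median -0.15), and of 14 basal B markers TGFBI was called (median 0.10).

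The calcium genes of the lists, on the subject of the study, were mostly within 2-fold on the log2(FPKM + 1) scale. On this scale the changes of weakly expressed genes look smaller than their ratios of FPKM. RGS2 (hg19, chr1:192778169-192781407), a GTPase-activating protein that turns off Gαq, was at 4.7 with DMSO, 8.23 with 100 nM and 7.62 with 200 nM after 24 h, a log2 change of 0.70 at 100 nM. In the 48 h libraries labelled DMSO, 100 nM and 200 nM RGS2 was at 6.75, 5.08 and 11.19. The related RGS4 was at 0.5 and 1.67 (0.83), PLCB3 (phospholipase C β3) at 35.45 and 30.91 (-0.19) and GNAQ (Gαq) at 16.2 and 14.53 (-0.15). None of 15 listed genes of Gq signalling, phospholipase C and calcium release was called (median 0.14). None of 15 listed calcium entry and pump genes was called (median 0.06), among which the channel TRPV2 was at 0.78 and 1.76 (0.63). The calcium channel subunit gene CACNB4, which this list leaves out, was called higher, at 1.87 and 5.32 (1.14). The plasma membrane pumps ATP2B1 and ATP2B4 had changes of 0.12 and 0.24. In a list of 20 calcium-binding genes, mostly EF-hand and S100 proteins, CALB2 and GSN were called (median 0.09). The list does not hold every such gene. The EF-hand genes AIF1L (1.65), VSNL1 (1.32) and EFHD1 (1.04), outside it, were called higher, and genes outside it that went lower were not counted. GSN and its actin-severing relative SCIN (scinderin), at 0.17 and 1.29 (0.97), are neither EF-hand nor S100 proteins. Of the 31 genes that the study discusses and the files hold, 18 reached FPKM 1, PCDH1, JUP and MMP15 were called, and their median change was 0.43. Because the study drew part of these genes from the same libraries, this median is not independent of the data.

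The promoters of the called genes were read from RefSeq on GRCh38.p14, 250 bases before to 50 after each start. Of the 155 higher genes 120 had at least 1 such window, 191 windows in all, beside 13876 windows of 9483 measured genes and 35116 windows in the whole table. The windows of 4 genes are shown because their genes were among the largest or most abundant increases and carry the sites that were counted. Capitals mark, on either strand, the TATA box with the letters TATAAA, the CCAAT box with its own name as letters, the GC box with GGGCGG, the AP-1 site with TGANTCA, the cyclic AMP response element with TGACGTCA, the E-box with CACGTG and the TEAD site with GGAATG; each line runs 5′ to 3′ on the strand of its gene. CPA4 is at chr7:130292911-130293210 (+), CCN2 at chr6:131951323-131951622 (-), ANKRD1 at chr10:90921038-90921337 (-) and AREG at chr4:74444886-74445185 (+).
CPA4: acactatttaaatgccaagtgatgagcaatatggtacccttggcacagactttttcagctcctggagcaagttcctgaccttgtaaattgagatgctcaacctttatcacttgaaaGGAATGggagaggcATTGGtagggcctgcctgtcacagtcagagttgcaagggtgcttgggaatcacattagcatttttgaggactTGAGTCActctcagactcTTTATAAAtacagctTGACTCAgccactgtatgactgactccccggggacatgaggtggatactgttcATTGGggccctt
CCN2: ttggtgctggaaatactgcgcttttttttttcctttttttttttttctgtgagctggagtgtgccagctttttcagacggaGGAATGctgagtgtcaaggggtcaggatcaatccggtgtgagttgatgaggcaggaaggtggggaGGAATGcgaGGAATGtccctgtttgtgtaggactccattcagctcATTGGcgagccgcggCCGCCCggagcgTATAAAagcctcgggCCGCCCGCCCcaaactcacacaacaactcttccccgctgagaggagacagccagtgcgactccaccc
ANKRD1: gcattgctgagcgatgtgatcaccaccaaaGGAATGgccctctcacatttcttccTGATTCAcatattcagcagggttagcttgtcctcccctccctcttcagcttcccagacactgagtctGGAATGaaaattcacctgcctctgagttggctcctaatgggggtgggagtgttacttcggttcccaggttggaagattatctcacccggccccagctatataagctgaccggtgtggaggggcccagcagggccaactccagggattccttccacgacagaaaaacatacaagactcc
AREG: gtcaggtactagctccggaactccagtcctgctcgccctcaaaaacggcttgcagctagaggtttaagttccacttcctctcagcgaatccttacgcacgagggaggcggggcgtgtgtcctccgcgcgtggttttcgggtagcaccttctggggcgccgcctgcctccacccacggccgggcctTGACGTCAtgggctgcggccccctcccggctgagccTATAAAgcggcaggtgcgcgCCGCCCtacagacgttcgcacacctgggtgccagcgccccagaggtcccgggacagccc

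The CPA4 window held 2 TGANTCA matches, on both sides of overlapping TATAAA matches on the 2 strands, and 1 GGAATG. The CCN2 window held 3 GGAATG matches and that of ANKRD1 2, and AREG had 1 TGACGTCA upstream of a TATAAA. Over all windows of the higher genes, TATAAA was in 10.99%, against 5.90% of the windows of measured genes and 11.5% of the whole table. TGANTCA was in 10.99%, 5.04% and 7.71%, GGAATG in 15.2%, 11.3% and 14.03%, and TGACGTCA in 4.19%, 2.84% and 1.85%. The GC box was less frequent, 58.1% against 67.1% of measured genes and 44.95% of the table, CACGTG was in 4.71%, 9.40% and 7.26%, and CCAAT in 34.6%, 34.9% and 34.6%. Windows with an observed to expected CpG ratio of at least 0.6 made up 53.9% for the higher genes, 77.8% for measured genes and 48.9% for the table. Of the 155 higher genes 56 (36.1%) were under FPKM 1 in DMSO 24 h, a level that the choice of genes used. The part of expression level in the motif shares was not tested. A match of letters is a description and shows no binding.

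The study examined the RGS2 promoter with primer pairs, 2 primers of which lie in the RefSeq window of RGS2 (GRCh38.p14, chr1:192808789-192809088, +). Capitals mark the reverse primer of pair 4, matched as its reverse complement at bases 233 to 250, and directly after it the forward primer of pair 5 at bases 251 to 268, whose first base is the annotated start.
RGS2: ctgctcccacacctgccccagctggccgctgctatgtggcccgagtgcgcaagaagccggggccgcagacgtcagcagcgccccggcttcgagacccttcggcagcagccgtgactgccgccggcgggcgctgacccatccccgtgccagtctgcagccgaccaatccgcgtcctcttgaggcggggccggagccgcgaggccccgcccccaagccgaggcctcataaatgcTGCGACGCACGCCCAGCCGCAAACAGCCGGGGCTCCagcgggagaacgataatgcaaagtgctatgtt

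The length and base composition of the transcripts were set beside the calls. The higher genes had a median transcript length of 2405 bases and a GC content of 51.6%, and all measured genes 2855 bases and 48.7%. With the genes in 5 equal bins of length the median change lay between 0.00 and 0.03, and the share called higher went from 1.64% and 1.78% in the 2 bins of shortest transcripts to between 1.07% and 1.16% in the other 3. In 5 bins of GC content the median change was highest, 0.06, in the genes lowest in GC. The share called higher was 0.84% in that bin and, with GC going up, 1.38%, 1.24%, 1.69% and 1.60% in the others. The 15 lower genes were shorter, with a median of 1426 bases over the 13 with a length, and 10 of the 13 fell in the bin of shortest transcripts.

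The number of called genes differed with the reference library. Against the library labelled DMSO 48 h in place of DMSO 24 h, 100 nM 24 h exceeded the reference for 7 genes (0.0606% of 11556) and lay below it for 59 (0.511%). Of the 155 higher genes 103 were above that library by any amount, 4 by 2-fold or more, and the median of the 155 was 0.14. The 4 were MTPN, KRTAP2-3, CYP1A1 (4.5 in DMSO 24 h, 17.1 at 100 nM 24 h and 3.89 in DMSO 48 h) and a gene listed only by its NCBI Gene number, 2 of them named after their values were seen. KRTAP2-3, a hair keratin-associated protein from a family of similar genes that may share reads, was at 11.74, 26.41 and 7.78 in these libraries. ANKRD1 kept part of its difference, at 285.09 in the library labelled DMSO 48 h (log2 change 0.76), whereas CCN2 was at 204.78 there (0.23). Of the 155 genes, 133 had a higher FPKM at 200 nM 24 h than at 100 nM 24 h and 22 a lower one, with a median difference of 0.44 on the log2 scale. The library at 100 nM was used to choose these genes and that at 200 nM was not. Shares of all measured genes above DMSO 48 h or higher at 200 nM 24 h were not computed. The counts of 103 and 133 are therefore given as description only.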

How the data were processed

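RNA from MDA-MB-231 cells was sequenced by a company for the authors, 1 library per condition. The deposited values were FPKM per gene, rounded to 2 decimals. The submitters' processing notes name Bowtie2, RSEM and hg19, without versions, and filters applied by the authors are not given in the sources used here. The files give no counts, and fragment totals were inferred from the steps of low FPKM values in single-transcript genes of 500 to 1500 bases, so depths and fragment numbers are approximate, and they cover counting error only. NCBI Gene IDs were named from RefSeq (GRCh38.p14), which matched 16585 of 16623; transcript length and GC came from GENCODE 29. Changes were differences in log2(FPKM + 1) computed with Python 3.11.15, numpy 2.4.6 and pandas 2.3.3; genes needed FPKM 1 in either library and a 2-fold difference. FPKM without counts or replicates allowed no count model and no test. The rule was also run on simulated counts for genes with FPKM of at least 1 in DMSO 24 h. The simulation held counting error and no other variation between libraries, so it does not bear on how reliable the calls are.

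The genes named were the 20 largest increases, the 10 largest decreases, called genes reaching FPKM 20, called members of a list with up to 4 members of largest change per list, and genes the study discusses; some of these are not reported here. The members and lists were chosen with earlier results of these data known. Levels after another pseudocount (0.1 or 0.01), filter, scaling, fold (1.5 or 3) or reference library were computed as alternatives. FPKM of different genes are comparable per length only.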

Additional observations from a re-analysis of the deposited data

Results flagged for a closer look

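The genes called higher at 100 nM 24 h moved the opposite way between the 48 h libraries labelled DMSO and 100 nM, 2 libraries that the choice of genes did not use. Of the 155 genes, 149 (96.1%) had less in the library labelled 100 nM than in that labelled DMSO, and their median log2 change there was -0.64, against 1.21 at 24 h. Over all genes with FPKM of at least 1 in either of the 48 h libraries the share below 0 was 52.4%, and among measured genes under FPKM 3 in DMSO 24 h it was 61.0%. Of the 15 genes called lower at 100 nM 24 h, 12 had more in the library labelled 100 nM 48 h. The difference between the times was not tested, since each condition has 1 library. The next count has no share of all measured genes beside it, and DMSO 24 h was used to choose the 155 genes. The level in the library labelled 100 nM 48 h was nearer to DMSO 24 h than to the library labelled 200 nM 48 h for 135 of the 155 genes. What lies behind this, including the labels of the 48 h libraries, was not tested, and no library was relabelled.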

How the results depend on the processing

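No paired analysis was possible because the conditions have 1 library each. Depth limits the weakest genes and the lack of replicates limits all of them. From 155 higher and 15 lower genes, the counts became 384 and 42 with a pseudocount of 0.1, 422 and 50 with 0.01, 332 and 34 on the TPM scale, where values are larger beside the added 1, 640 and 144 at 1.5-fold and 29 and 2 at 3-fold. FPKM of at least 1 in both libraries, which drops genes near 0, gave 99 higher and 10 lower genes. Median-of-ratios scaling gave 139 and 20, and no filter gave 155 and 15. With another reference there were 7 higher and 59 lower against the library labelled DMSO 48 h, and 22 and 11 against the mean of both DMSO libraries, of which 22 and 5 were among the 155 and 15. Medians were above 0 for 23 of 35 lists, for 8 against DMSO 48 h and for 15 against the mean of both, and for 21 to 23 under the other alternatives.

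Of all 155 higher genes, 51 lay below DMSO 48 h. Among the called genes that the naming rule gave, these changed sign against it: LMCD1 (-0.021), IL24 (-0.94), PCSK1N (-0.16), RGS9 (-0.10), APLP1 (-0.19), TNC (-0.072), TGFBI (-0.61), KRT15 (-0.27), CXCL8 (-0.99), JUP (-0.54), IL1B (-1.83), CYSTM1 (-0.020), CLU (-0.20), GSN (-0.10), IFI6 (-0.14), GABARAPL1 (-0.40), CDKN1A (-0.52), EEF1A2 (-0.27), LTBP1 (-0.74), TAGLN (0.95) and SERF1A (1.80). LOC102724594 did so too (0.30), at FPKM 0.23 at 100 nM 24 h and 0 in DMSO 48 h, both under 1. FMC1-LUC7L2 was listed at 0 in both of these libraries. Of the genes named after their values were seen, LOXL4 (-0.68) and AKR1C3 (-0.05) changed sign. Against the mean of both DMSO libraries IL1B (-0.26) and SERF1A (0.14) did so. The cause was not tested. No called gene given by the rule changed sign under another pseudocount, filter, scaling or fold.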

Other observations

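Further values are given here for called genes that were named after their values were seen. CYP1A1, a detoxifying enzyme and target of the aryl hydrocarbon receptor, was at FPKM 4.5 with DMSO, 17.1 with 100 nM and 34.7 with 200 nM for 24 h, and between 3.89 and 10.15 in the 48 h libraries. AKR1C3, a steroid-converting reductase, was at 4.08 and 13.47, and LOXL4, a lysyl oxidase of collagen and elastin, at 3.32 and 12.45. The vasoconstrictor peptide gene EDN1 was at 6.68 and 16.69, and its receptor gene EDNRB at 1.21 and 3.43.

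Other called genes had levels at 200 nM 24 h close to those at 100 nM. EEA1, a tether of early endosomes, was at 3.94, 9.98 and 9.33 in DMSO, 100 nM and 200 nM at 24 h, the Golgi protein GOLGA4 at 6.59, 14.9 and 15.14, and the DNA repair protein RAD50 at 4.82, 11.89 and 12.34. The centromere guardian SGO2 was at 13.19, 27.59 and 24.24. Just below the threshold, HMGN2, an abundant nucleosome-binding protein, was at 249.73 in DMSO 24 h and 126.64 at 100 nM 24 h.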
